A study of Mus musculus with 4 samples.

Results

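The slow-fibre skeletal muscle genes are 10 genes listed for their role in slow muscle fibres, *Myh7*, *Myl2*, *Myl3*, *Tnni1*, *Tnnt1*, *Tnnc1*, *Myoz2*, *Mybpc1*, *Csrp3* and *Mb*, among 19938 genes measured in mouse subcutaneous adipose tissue (SAT). The rule for the list uses no measured value, but the members were chosen with earlier results of these data known. Each was read by 1 probe set that names only that gene. The data are 4 Affymetrix mouse gene ST arrays, 1 per group: cKO-HFD, cKO-CT, WT-HFD and WT-CT. All mice were C57Bl6 males, 16 weeks old and carried the NAPE PLD lox/lox allele. The cKO mice also carried AP2 Cre, which is driven by the promoter of *Fabp4*, so that cells not using that promoter keep the gene, and the WT mice were littermates without Cre. HFD mice ate a high-fat diet (D12492) and CT mice a control diet (AIN93M). Per the labels, RNA of 4 to 5 mice, picked for RNA quality, was pooled into each array, so the spread between mice is not seen, no difference has a replicate check, and no test or p-value is given. In whole tissue, fewer cells of a type and less RNA per cell cannot be told apart.

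Skeletal muscle fibres are grouped by the myosin heavy chain they make. Slow fibres use *Myh7*, contract slowly and burn fuel in mitochondria with oxygen that myoglobin holds ready. Fast fibres use *Myh2*, *Myh1* or *Myh4*, named type IIa, IIx and IIb, in rising order of speed and falling order of oxidative capacity. Most sarcomere proteins have a slow and a fast form from separate genes, and many slow forms are also those of the heart. Brown fat also makes myoglobin.

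The deposited levels are log2 values from RMA, a procedure that removes background, equalises the arrays by quantiles and combines probes. Array medians over all genes lay between 5.80 and 5.83, and Pearson's r between pairs of arrays was 0.980 to 0.989 across genes. Olfactory receptor (*Olfr*) genes, most of which are silent outside the nose, served as a background, with their 95th percentile at 5.50 (cKO-HFD), 5.28 (cKO-CT), 5.42 (WT-HFD) and 5.39 (WT-CT). The targeted gene *Napepld* read 7.94 (cKO-HFD), 7.78 (cKO-CT), 8.01 (WT-HFD) and 8.31 (WT-CT). Its log2 ratio was -0.06 for the HFD genotype pair and -0.53 for the CT pair. The array labelled cKO-HFD thus showed next to no loss of *Napepld*, and whether the probe set lies in the deleted part of the gene was not tested, so the array names and the HFD genotype ratios rest on the labels. The paper reports that *Napepld* mRNA was reduced in fat depots of cKO mice on both diets, with some expression left outside adipocytes. Adipocyte genes marked the tissue as labelled, and *Adipoq*, the adiponectin gene, lay between 12.44 and 12.70 on the 4 arrays. The slow-fibre label was borne out only in part, since *Tnnt1* and *Myoz2* stayed under the *Olfr* line on all 4 arrays and *Myl2* passed it on WT-CT alone. Of the 10 genes, the number above that line was 6 (cKO-HFD), 6 (cKO-CT), 7 (WT-HFD) and 8 (WT-CT), and 5 passed it everywhere. Of all 19938 genes, 11376, 11989, 11615 and 11838 lay above it on these arrays in turn, and 10895 everywhere. The counts of 6 and 5 are thus near the share of all genes.

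Among genes of the thick filament, the clearest pattern over the arrays was that of *Mybpc1*, which encodes slow-type myosin-binding protein C, a protein that braces the filament and tunes cross-bridges. *Mybpc1* stood at 5.89 on cKO-HFD and 5.39 on cKO-CT, against 7.64 on WT-HFD and 7.06 on WT-CT. Both cKO arrays were thus far below both WT arrays, with cKO-CT barely above the *Olfr* line. The level was 3.35-fold lower in cKO than in WT on HFD and 3.18-fold lower on CT. In cKO-CT over WT-CT this was the 12th lowest log2 ratio of the 19938 genes.
*Myh7*, the slow and cardiac myosin heavy chain, had log2 levels of 5.78 on cKO-HFD and 5.25 on cKO-CT, against 6.42 on WT-HFD and 6.43 on WT-CT. The WT arrays were level with each other, and on cKO-CT the gene sat under the *Olfr* line. *Myh7* was 1.56-fold lower in cKO than in WT on HFD and 2.26-fold lower on CT. Its neighbour in the genome *Myh6*, the fast myosin of the heart, lay under the *Olfr* line on all 4 arrays, at 4.47 to 5.16. Whether probes of one of these similar genes pick up the other was not tested.
The regulatory light chain gene *Myl2* read 4.47 (cKO-HFD), 4.06 (cKO-CT), 4.86 (WT-HFD) and 5.47 (WT-CT). It was lower on each cKO array than on either WT array, but only WT-CT rose above the background line, so the log2 ratios of -0.39 on HFD and -1.41 on CT are not resolved in size. *Myl3*, the essential light chain of slow and ventricular muscle, gave 5.57 on cKO-HFD and 5.50 on cKO-CT, against 5.89 on WT-HFD and 5.83 on WT-CT. The order was the same as for *Mybpc1*, with differences of 1.24-fold on HFD and 1.26-fold on CT that stayed under 1.5-fold.

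The slow troponins, which switch the thin filament on when calcium binds, differed less. *Tnni1*, the inhibitory subunit, read 5.40 on cKO-HFD and 5.34 on cKO-CT, against 5.70 on WT-HFD and 5.66 on WT-CT, log2 ratios of -0.30 and -0.32. *Tnnt1*, the tropomyosin-binding subunit, read 5.13 and 5.10 on cKO-HFD and cKO-CT, against 5.30 and 5.24 on WT-HFD and WT-CT. Both genes placed the cKO arrays below the WT arrays by small steps close to or inside the background. *Tnnc1*, the calcium-binding subunit of slow and cardiac muscle, went another way. Its level was 6.01 (cKO-HFD), 5.33 (cKO-CT), 5.78 (WT-HFD) and 5.82 (WT-CT), so that cKO-HFD was the highest array and cKO-CT the lowest. The ratio of cKO-HFD over cKO-CT was 1.60-fold.

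*Mb*, the myoglobin gene, had log2 levels of 6.54 on cKO-HFD and 6.82 on cKO-CT, against 8.43 on WT-HFD and 8.04 on WT-CT, all above the *Olfr* line. The groups of 2 arrays per genotype did not overlap, and the higher cKO level minus the lower WT level was -1.22. *Mb* was 3.71-fold lower in cKO than in WT on HFD and 2.33-fold lower on CT. At the Z-disc, which anchors the filaments, *Myoz2* encodes the calcineurin-binding protein of slow muscle and heart. It read 4.22 on cKO-HFD and 4.26 on cKO-CT, against 4.82 on WT-HFD and 4.88 on WT-CT, log2 ratios of -0.60 and -0.62 from levels below background throughout. *Csrp3*, a LIM protein of slow muscle and heart, had 5.99 (cKO-HFD), 5.75 (cKO-CT), 5.998 (WT-HFD) and 5.63 (WT-CT). WT-CT was its lowest array, and no ratio of it passed 1.5-fold.

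**Figure D1:**
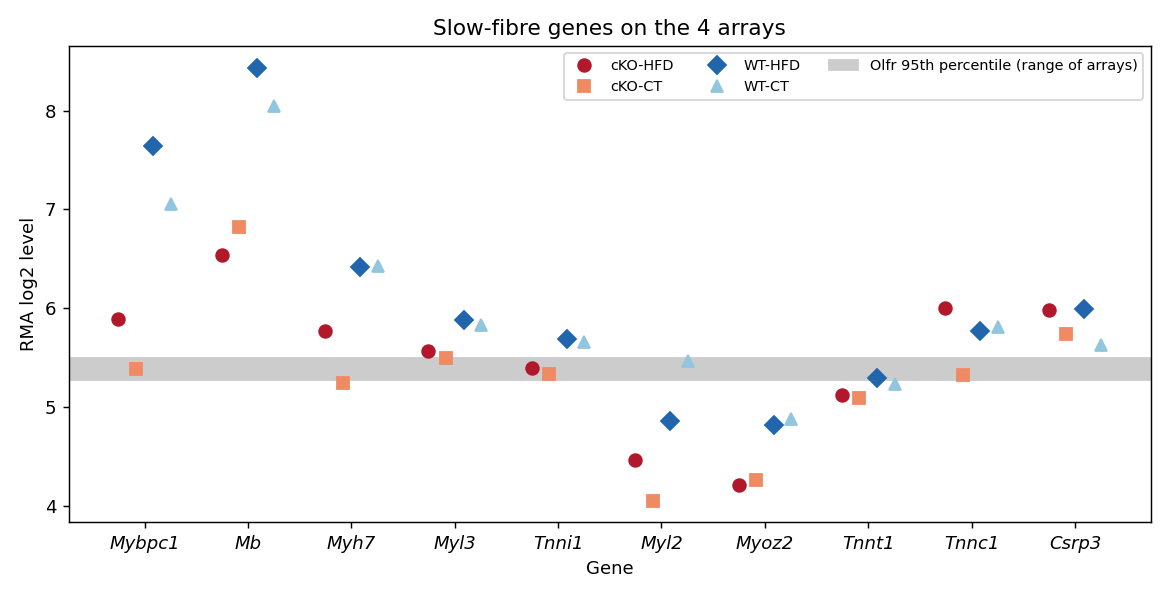
RMA log2 level (vertical axis) of the 10 slow-fibre genes (horizontal axis), with 1 point per array for cKO-HFD, cKO-CT, WT-HFD and WT-CT and a grey band over the range of the *Olfr* 95th percentiles. In *Mybpc1* and *Mb* both cKO arrays, at 5.39 to 6.82, lie well below both WT arrays, at 7.06 to 8.43, while *Tnnc1* and *Csrp3* do not follow the genotype.

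Promoter sequences are shown for the 3 of the 10 genes whose cKO arrays both lay furthest below both WT arrays. The type IIb myosin gene *Myh4* is shown beside them. Its genotype log2 ratio was 0.24 on CT and -4.46 on HFD, so its cKO arrays did not both lie below both WT arrays. Each is the 250 bases before a RefSeq transcript start on GRCm38.p6, 5′ to 3′ on the gene's strand. Capitals mark the E-box CANNTG, bound by myogenic factors, the MCAT motif CATTCC, bound by TEAD factors, and the MEF2 site, each searched on both strands. The windows are chr10:88605153-88605402, minus strand for *Mybpc1*, chr15:77022788-77023037, minus strand for *Mb* (1 of 3 starts), chr14:54994627-54994876, minus strand for *Myh7* (the upstream of 2 starts) and chr11:67237562-67237811, plus strand for *Myh4*.
Mybpc1: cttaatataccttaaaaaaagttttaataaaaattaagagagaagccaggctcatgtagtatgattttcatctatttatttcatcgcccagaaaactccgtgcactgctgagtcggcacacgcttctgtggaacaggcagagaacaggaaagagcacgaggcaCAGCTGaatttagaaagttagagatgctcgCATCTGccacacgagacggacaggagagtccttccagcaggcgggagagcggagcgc
Mb: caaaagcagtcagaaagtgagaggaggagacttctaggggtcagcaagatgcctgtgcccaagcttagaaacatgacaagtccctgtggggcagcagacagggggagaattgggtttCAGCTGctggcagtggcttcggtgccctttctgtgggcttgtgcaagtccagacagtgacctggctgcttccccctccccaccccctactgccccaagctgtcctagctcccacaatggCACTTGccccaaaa
Myh7: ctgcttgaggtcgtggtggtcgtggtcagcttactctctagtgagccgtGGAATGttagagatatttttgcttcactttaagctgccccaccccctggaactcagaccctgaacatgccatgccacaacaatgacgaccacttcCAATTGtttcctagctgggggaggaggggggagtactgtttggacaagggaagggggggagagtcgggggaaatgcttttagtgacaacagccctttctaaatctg
Myh4: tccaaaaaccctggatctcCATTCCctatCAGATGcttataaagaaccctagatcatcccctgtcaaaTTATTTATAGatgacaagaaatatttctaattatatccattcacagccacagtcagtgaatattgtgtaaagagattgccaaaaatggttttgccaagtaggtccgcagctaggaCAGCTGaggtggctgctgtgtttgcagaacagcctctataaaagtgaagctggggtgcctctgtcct
The *Mybpc1* and *Mb* windows each held 2 CANNTG matches, of which 1 was CAGCTG, and neither an MCAT nor a MEF2 match. The *Myh7* window held 1 CANNTG and 1 MCAT match, and the *Myh4* window held 2 CANNTG, 1 MCAT and 1 MEF2 match. Over 32851 promoter windows of the same length, 66.2% held CANNTG, 13.0% CAGCTG, 12.6% MCAT and 1.69% MEF2. A gene was counted if any of its windows held the motif. CAGCTG was present for 5 of the 10 slow-fibre genes and for 5 of the 10 fast-fibre genes with a window. MCAT was present for 3 and 4, and MEF2 for 1 and 3. The slow-fibre genes had 16 windows and the fast-fibre genes 11. By window, the unit of the shares above, CAGCTG was in 7 and 5, MCAT in 3 and 4, and MEF2 in 1 and 3. A match is a description of the sequence and not a bound site.

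The genotype comparison on the control diet asks what accompanies adipose *Napepld* deletion without the high-fat diet. In cKO-CT over WT-CT, 5 of the 10 genes were at least 1.5-fold lower and 0 higher, beside 1.52% of all genes lower and 1.64% higher. The 5 were *Mybpc1*, *Myl2*, *Mb*, *Myh7* and *Myoz2*, of which *Myoz2* was at -0.53 and no longer past 1.5-fold after cyclic loess, another way to equalise the arrays. The median log2 ratio of the 10 was -0.55, beside -0.005 over all genes, and 9 of 10 ratios were below 0, with *Csrp3* (0.11) the other. On HFD, in the array labelled cKO-HFD over WT-HFD, 4 were at least 1.5-fold lower and 0 higher, beside 2.11% and 1.04% of all genes, with a median of -0.35. These were *Mb*, *Mybpc1*, *Myh7* and *Myoz2*, and *Tnnc1* (0.23) had the only ratio above 0. The 2 genotype ratios use different arrays. At 2-fold, 4 were lower in cKO-CT over WT-CT, beside 0.186% of all genes, and 2 in cKO-HFD over WT-HFD, beside 0.908%.

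Between diets few of the same genes passed 1.5-fold. In WT-HFD over WT-CT the median log2 ratio was 0.04, with 0 genes higher and 1 lower, *Myl2* (-0.61), beside 3.16% and 2.67% of all genes. *Mybpc1* reached 0.58 there, just short of 1.5-fold. In cKO-HFD over cKO-CT the median was 0.16, with 1 gene higher, *Tnnc1*, and 0 lower, beside 1.82% and 2.17%. The *Olfr* line was itself higher on cKO-HFD (5.50) than on cKO-CT (5.28), so small rises of genes near it are not resolved. *Myh7* (0.53) and *Mybpc1* (0.51) lay just under the threshold, and *Mb* was at -0.28. At 2-fold, 0 were lower in WT-HFD over WT-CT, beside 0.647% of all genes, and 0 higher in cKO-HFD over cKO-CT, beside 0.186%. Each array enters 2 of the 4 ratios, so a genotype ratio and a diet ratio always share 1 array. The median difference between the genotype ratio on HFD and on CT was 0.02 over the 10 genes, a value whose sign turned under other scalings, and it ranged between -0.67 for *Mb* and 1.02 for *Myl2*.

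Fast-fibre genes followed another pattern than most of the 10. All 14 of the fast-fibre list had their top level on WT-HFD and their bottom level on cKO-HFD. Of the slow-fibre genes 6 were highest on WT-HFD, 3 on WT-CT and 1 on cKO-HFD, and 7 were lowest on cKO-CT. *Mb* had its top and bottom on the same arrays as the fast-fibre genes. A bottom level on cKO-CT was also seen in 6 of 7 pancreatic acinar, 5 of 8 other slow-fibre and 5 of 11 heart genes. The count was 3 of 11 muscle regulators, 1 of 8 adipocyte genes and 0 in the both-types, smooth muscle and brown fat lists. The *Olfr* line was itself lowest on cKO-CT, so this trait is not resolved for genes near it. *Myh4* stood at 7.73 (cKO-HFD), 10.64 (cKO-CT), 12.20 (WT-HFD) and 10.40 (WT-CT). *Actn3*, the alpha-actinin of fast fibres, stood at 7.32 (cKO-HFD), 9.69 (cKO-CT), 11.63 (WT-HFD) and 9.81 (WT-CT). Both were nearly level between the CT arrays and spread widely between the HFD arrays. In cKO-CT over WT-CT the fast-fibre median log2 ratio was -0.12, with 2 of 14 lower and 0 higher, and slow minus fast was -0.43. In cKO-HFD over WT-HFD the fast-fibre median was -3.99, with 14 of 14 lower, and slow minus fast was 3.63. That difference is limited by the room to fall. On WT-HFD the slow-fibre genes lay at most 3.01 log2 units above the *Olfr* line (*Mb*), with a median of 0.41, against a median of 5.48 for the fast-fibre genes.
The diet ratios of the lists also parted. In WT-HFD over WT-CT the fast-fibre median was 1.78 with 12 of 14 higher, and slow minus fast was -1.73. In cKO-HFD over cKO-CT it was -2.21 with 12 of 14 lower, and slow minus fast was 2.36. There, all 10 slow-fibre ratios lay above the highest fast-fibre ratio. That separation is also limited by the room to fall. On cKO-CT the *Olfr* line was at 5.28, 4 of the 10 slow-fibre genes lay under it, and *Mb*, the highest, read 6.82. A fall as large as the fast-fibre median could thus not have been seen. *Myh7* sat under and *Mybpc1* just above the *Olfr* line on cKO-CT, so the sizes of their ratios with that array are not well resolved.

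**Figure D2:**
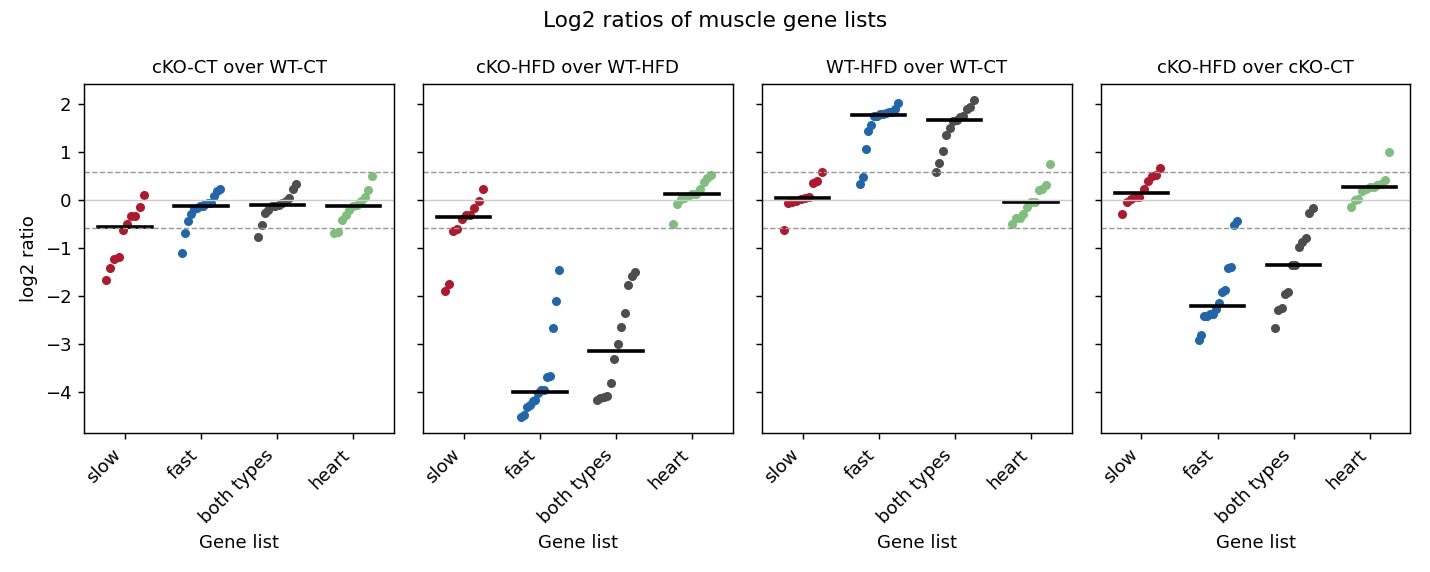
Log2 ratio (vertical axis) of each gene in the slow-fibre, fast-fibre, both-types and heart lists for the 4 comparisons, with medians as black bars and dashed lines at 1.5-fold. Slow-fibre medians were -0.55 and -0.35 for the 2 genotype ratios, against -0.12 and -3.99 for the fast-fibre list.

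Of the slow-fibre genes, 8 have a fast form of the same protein in the fast-fibre list, with *Myh4* taken for *Myh7*. On CT the slow form had the lower genotype ratio in 7 of these 8 pairs. *Myh7* had -1.18 and *Myh4* 0.24, while the other fast forms, *Myh1* and *Myh2*, had -1.10 and -0.68. On WT-CT, 7 of the 10 slow-fibre genes lay less than 1 log2 unit above the *Olfr* line, or under it. The sizes of their ratios on CT are thus not well resolved. In log2 ratios of cKO-CT over WT-CT, *Mybpc1* had -1.67 and fast *Mybpc2* 0.08, *Myl2* -1.41 and fast *Mylpf* -0.28, *Myl3* -0.33 and fast *Myl1* -0.19, and *Myoz2* -0.62 and fast *Myoz1* 0.19. For the troponins, *Tnnc1* had -0.49 and fast *Tnnc2* -0.07, *Tnni1* -0.32 and fast *Tnni2* -0.05, and *Tnnt1* -0.14 and fast *Tnnt3* -0.15, the pair in which the slow form was not lower. On HFD the slow form had the higher ratio in all 8 pairs, but 7 of the 8 slow forms lay less than 1 log2 unit above the *Olfr* line on WT-HFD, or under it, so a fall as large as that of their partners could not have been seen. For cKO-HFD over WT-HFD, *Mybpc1* had -1.74 and *Mybpc2* -4.52, *Myoz2* -0.60 and *Myoz1* -4.26, and *Tnnc1* 0.23 and *Tnnc2* -4.17. The same ratio was -3.68 for *Tnni2*, -3.95 for *Tnnt3*, -3.94 for *Mylpf* and -2.67 for *Myl1*.
The fast-fibre genes without a slow partner among the 10 were *Actn3*, the calcium pump gene *Atp2a1*, the calcium-buffer gene *Pvalb*, the calcium-store gene *Casq1*, *Myh1* and *Myh2*. On CT the genotype log2 ratio was -0.06 for *Atp2a1*, -0.13 for *Pvalb* and -0.43 for *Casq1*, and on HFD it was -4.02, -4.16 and -3.66 for these genes in turn. None of the 3 passed 1.5-fold on CT and all did on HFD.

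The myosin heavy chains divided by type. The type IIx gene *Myh1* read 6.09 on cKO-HFD and 6.62 on cKO-CT, against 8.20 on WT-HFD and 7.72 on WT-CT. The type IIa gene *Myh2* read 5.31 on cKO-HFD and 5.74 on cKO-CT, against 6.76 on WT-HFD and 6.42 on WT-CT. Like slow *Myh7*, both had both cKO arrays below both WT arrays by at least 1.5-fold, and they were the 2 fast-fibre genes called lower in cKO-CT over WT-CT. For that comparison the log2 ratios were -1.18 for *Myh7*, -0.68 for *Myh2*, -1.10 for *Myh1* and 0.24 for *Myh4*. In cKO-HFD over WT-HFD they were -0.64, -1.45, -2.11 and -4.46 in the same order of genes. That order is also the order of their heights above the *Olfr* line on WT-HFD, 0.998, 1.34, 2.78 and 6.78 log2 units, and *Myh2* was under the line on cKO-HFD, so fibre type and room to fall cannot be told apart there. *Myh1*, *Myh2* and *Myh4* are close relatives that lie in a cluster, and whether their probes pick up one another was not tested.

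**Figure D3:**
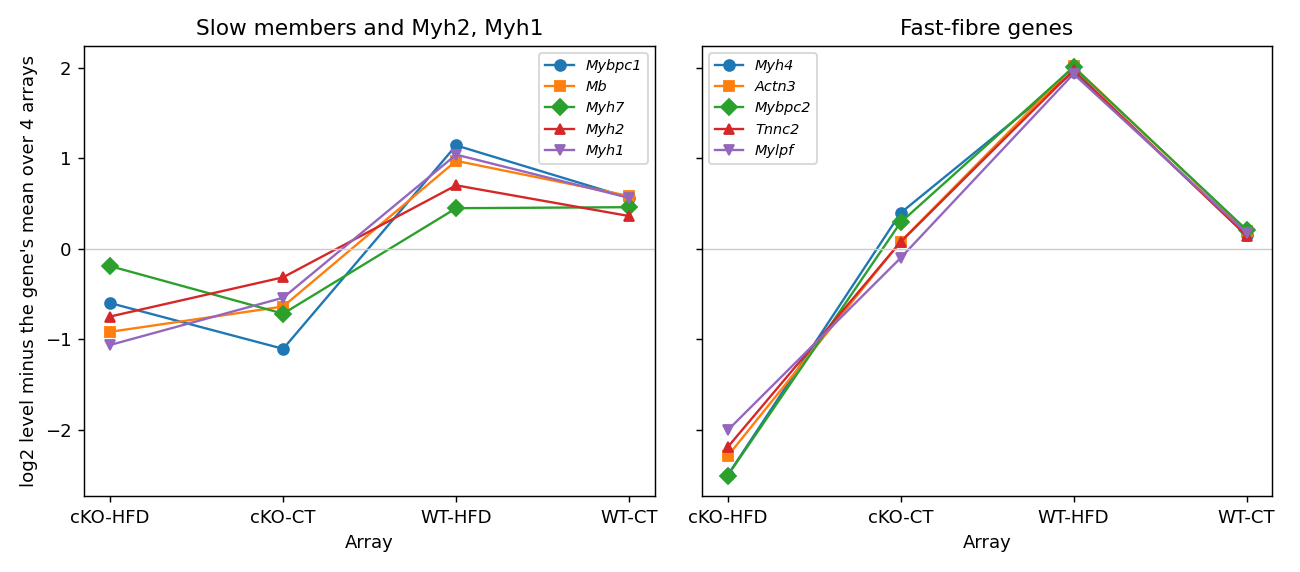
Log2 level minus the gene's own mean over the 4 arrays (vertical axis) on cKO-HFD, cKO-CT, WT-HFD and WT-CT, with 1 line per gene. The left panel holds *Mybpc1*, *Mb*, *Myh7*, *Myh2* and *Myh1*, below 0 on both cKO arrays and above 0 on both WT arrays, and the right panel holds 5 fast-fibre genes at 1.93 to 2.02 on WT-HFD and -2.51 to -2.01 on cKO-HFD.

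**Figure D4:**
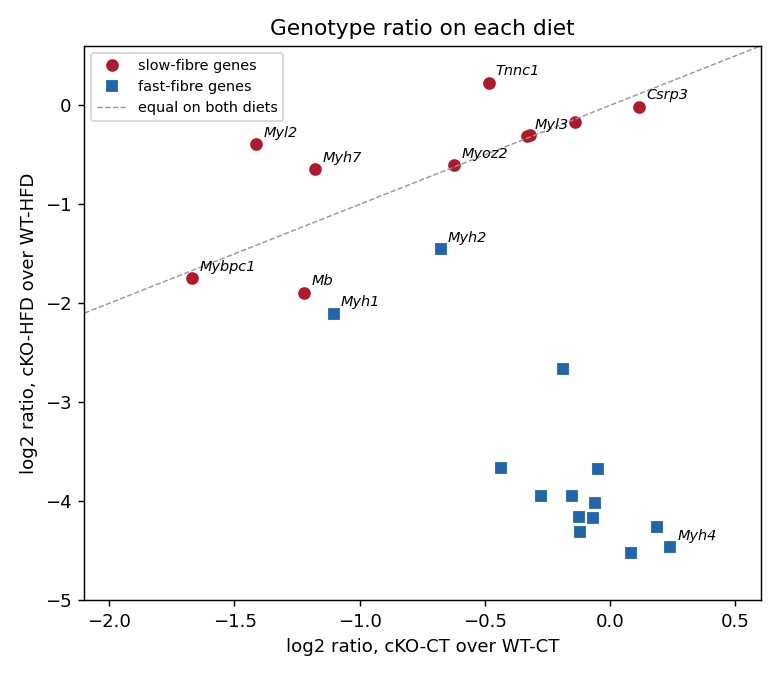
Log2 ratio of cKO-HFD over WT-HFD (vertical axis) against that of cKO-CT over WT-CT (horizontal axis) for the 10 slow-fibre (circles) and 14 fast-fibre (squares) genes, with a dashed line of equal ratios. *Mybpc1*, *Myoz2*, *Myl3*, *Tnni1* and *Tnnt1* lie next to the line, with vertical minus horizontal values of -0.07, 0.02, 0.02, 0.02 and -0.03. Of these, *Myoz2* and *Tnnt1* were under the *Olfr* line on all arrays. *Myh1* and *Myh2* lie near *Mb*, and *Myh4* is at 0.24 on the horizontal and -4.46 on the vertical axis.

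Ranked over all genes by how far both cKO arrays lay below both WT arrays, *Mb* and *Mybpc1* took ranks 1 and 2. The fast-fibre gene *Myh1* was next, at rank 3. Of the slow-fibre genes, *Myoz2*, *Myl2*, *Tnni1*, *Myl3* and *Tnnt1* ranked 10, 45, 145, 148 and 777. The gap is the higher cKO level minus the lower WT level, a measure chosen after the values were seen. It was below 0 for 8 of the 10 genes, *Tnnc1* and *Csrp3* being the others, beside 12.7% of all genes. The trait was shared by other skeletal muscle genes, with 11 of the 14 fast-fibre genes and 9 of the 12 genes of both fibre types below 0. Both cKO arrays lay above both WT arrays for 0 of the 10, beside 16.6% of all genes. The gap reached 1.5-fold for *Mb* (-1.22), *Mybpc1* (-1.16) and *Myh7* (-0.64), which ranked 1, 2 and 7 of 19938 genes. Only 8 genes, 0.0401% of all, reached that size. The others were *Myh1* (-1.10), the alpha-actinin gene *Actn2* (-0.77), *Myh2* (-0.68), *Trim54* (-0.66), a muscle RING-finger gene, and *Apobec2* (-0.62), a gene of striated muscle. *Apobec2* differed from the slow-fibre genes on HFD, where its log2 ratio was -3.25. In the opposite direction, 2 genes, 0.01% of all and 0 of the 10, had both cKO arrays at least 1.5-fold above both WT arrays. After cyclic loess all 8 genes were kept and 10 were counted.

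Other genes linked to slow fibres differed less between the arrays. Of 8 such genes, 0 were at least 1.5-fold higher or lower in any of the 4 comparisons, with medians between -0.11 and 0.09. The most extreme were *Ankrd2*, a stretch-responsive gene of slow fibres, with -0.48 in cKO-HFD over WT-HFD and -0.37 in cKO-CT over WT-CT, and *Myl6b* and *Tpm3* with 0.37 and 0.34 in cKO-HFD over cKO-CT. *Tpm3* and *Atp2a2*, the calcium pump of slow muscle and heart, are also made by many non-muscle cells. *Ankrd2* was 1 of 2 genes of this list, with *Pln*, in which both cKO arrays were below both WT arrays.
Genes of both fibre types went mostly with the fast-fibre list. Of 12, 0 were higher and 1 was lower on CT in cKO than in WT, 12 were lower in cKO-HFD over WT-HFD, 11 were higher in WT-HFD over WT-CT and 10 were lower in cKO-HFD over cKO-CT. *Ckm*, muscle creatine kinase, had 0.24 in cKO-CT over WT-CT and -4.15 in cKO-HFD over WT-HFD, with *Neb* (-4.12) and *Ttn* (-4.10) close to it on HFD. The gene lower in cKO-CT was *Actn2* (-0.77).

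Markers of other cell types were read beside the slow-fibre genes. Of 11 heart genes, 2 were lower in cKO-CT over WT-CT, *Myh6* (-0.69) and *Actc1* (-0.67), and 0 lower in cKO-HFD over WT-HFD. Of the 11, 8 rose above the *Olfr* line on at least 1 array, among them *Actc1* at 6.53 to 7.20 and *Myl4* at 8.26 to 9.48. The atrial natriuretic peptide gene *Nppa* lay between 5.24 and 5.74 and the cardiac troponin gene *Tnni3* between 5.13 and 5.55, at or near that line. *Myl4*, a light chain gene, was the heart-list gene with the largest ratios, 0.75 in WT-HFD over WT-CT and 1.0005 in cKO-HFD over cKO-CT.
Of 9 brown and beige genes, 7 were lower in cKO-CT over WT-CT and 8 in WT-HFD over WT-CT, and their summed level on the log2 scale was 11.29 (cKO-HFD), 12.75 (cKO-CT), 11.76 (WT-HFD) and 13.65 (WT-CT). In cKO-HFD over WT-HFD 2 were lower, *Fabp3* (-1.70) and *Cox7a1* (-1.53), both also made by oxidative muscle, and 1 was higher, *Elovl3* (0.93). *Ucp1*, *Elovl3* and *Cidea* had ratios of -4.42, -4.87 and -3.41 in WT-HFD over WT-CT, where *Mb* had 0.39. The part of brown fat in the *Mb* levels was not tested.
Of 7 pancreatic acinar genes measured, 7 were lower in cKO-CT over WT-CT and 7 in WT-HFD over WT-CT, with summed levels of 8.19, 7.96 and 8.26 on cKO-HFD, cKO-CT and WT-HFD and 10.48 on WT-CT. *Cpa1* (-3.40), *Ctrb1* (-3.23) and *Rnase1* (-2.48) were the most extreme in cKO-CT. All 7 were thus highest on the WT-CT array, and their part in ratios with that array was not tested. In cKO-HFD over WT-HFD, which does not use that array, 0 of the 7 acinar genes passed 1.5-fold. *Mb*, *Mybpc1*, *Myh7* and *Myoz2* were at least 1.5-fold lower there, *Myoz2* from levels under the *Olfr* line. So were 14 of 14 fast-fibre genes and 12 of 12 genes of both fibre types.
Smooth muscle genes ran the other way, with 3 of 8 higher in cKO-CT over WT-CT and 0 lower, *Acta2* (1.478), *Synpo2* (1.11) and *Myl9* (0.75), and 0 called in cKO-HFD over WT-HFD. Of 8 adipocyte genes, 1 was higher in cKO-CT, *Lep* (1.02), and 0 were called in cKO-HFD over WT-HFD, where *Lep* had 0.47, *Pparg* 0.21 and *Cidec* 0.16.
Among 11 regulators of muscle identity and fibre type, *Myog* and *Myf5* lay under the *Olfr* line on all arrays and *Myod1* between 5.79 and 6.08. *Myf6*, a myogenic factor of mature fibres, followed the fast-fibre genes, with 5.21 (cKO-HFD), 5.82 (cKO-CT), 7.07 (WT-HFD) and 5.77 (WT-CT). *Mef2c* had a ratio of -0.89 in cKO-HFD over WT-HFD and 0.86 in WT-HFD over WT-CT. *Ppargc1b*, a coactivator of mitochondrial genes, was the 1 regulator lower in cKO-CT over WT-CT (-0.65), and its ratio was -1.38 in WT-HFD over WT-CT and 0.09 in cKO-HFD over WT-HFD.

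Likeness of pattern was measured as the root mean square distance between log2 levels on the 4 arrays, each centred on the gene's own mean, over 12486 genes above the *Olfr* line on at least 1 array. The genes nearest to the mean profile of the 10 were *Pdgfrl* (distance 0.058), the sodium pump subunit gene *Atp1b1* (0.098), *Fscn2* (0.106), the cardiac actin gene *Actc1* (0.107), *Klhl30* (0.109) and *Lrrc30* (0.113). *Actc1* read 6.56 on cKO-HFD and 6.53 on cKO-CT, against 7.06 on WT-HFD and 7.20 on WT-CT.
For single genes, those nearest to *Mb* were *Myh1* (0.094), *Actn2* (0.23) and *Myh2* (0.25), and those nearest to *Mybpc1* were *Mb* (0.30), *Myh1* (0.37) and *Actn2* (0.37). *Myh7* was nearest to *Pdgfrl* (0.15), *Myl2* (0.22) and *Trim54* (0.22), and *Myoz2* to *Actc1* (0.040), *Atp1b1* (0.053) and *Aldoart1* (0.079). *Myl3* and *Tnni1* lay 0.011 from each other, with *Mir551b* (0.0074) and *Ncam1* (0.018) also near *Myl3* and *Il17c* (0.018) near *Tnni1*. The distance is not scaled, so genes that vary little over the arrays tend to have small distances. The log2 range was 0.385 for *Myl3* and 0.355 for *Tnni1*, against 2.25 for *Mybpc1*. Distances of different members thus do not rank how well they were matched. *Myl2* was nearest to *Mss51* (0.12), *Try5* (0.19), a trypsin gene, and *Leng1* (0.21). The 3 genes nearest to each of the remaining members are given in brackets for *Tnnt1* (*Vps9d1*, *Ap4b1* and *Wdr38*), *Tnnc1* (*Ppp1r14d*, *Cnfn* and *Cd163l1*) and *Csrp3* (*Arhgap33os*, *Cks2* and *Rps6ka3*), all within 0.030.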

How the data were processed

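The authors pooled RNA within each group, hybridized each pool to 1 Affymetrix mouse gene ST array and deposited log2 levels per probe set, made with RMA (the RMA-Sketch procedure of the APT tools per the paper's methods, Affymetrix Expression Console per the labels). RMA equalises arrays, which can shift genes near background, and the detection filter of the paper's methods was not applied here. Groups came from the sample titles. The labels give 4 to 5 mice per pool and the paper's methods 5. Of 35556 probe sets, 21789 had 1 gene name in GEO's platform annotation, 1621 had several and 12146 had none. Probe sets with 1 name were averaged per gene. Ratios were differences of log2 levels, and 1.5-fold, the size used in the study, was the size for a call. Of 100 symbols in 10 lists, 98 were measured and the others were not analysed here. Members and lists were chosen with earlier results of these data known.

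Genes named are the 10, *Napepld*, the fast-fibre list, up to 3 genes of each other list with the largest ratio and those needed for counts of 5 or fewer, the 6 genes nearest to the mean profile and the 3 nearest to each member. *Nppa*, *Tnni3*, *Myod1*, *Myog*, *Myf5*, *Adipoq*, *Atp2a2* and *Apobec2*, the ranking by genotype gap and the slow and fast pairs were chosen after their values were seen. Alternatives were the highest probe set, an *Olfr* filter, centring, cyclic loess (span 0.7, 3 iterations), a 2-fold size and shorter lists. The number of arrays limits the precision. The steps were tested on simulated data. Promoter sequences came from RefSeq (GRCm38.p6). Python 3.11.15, numpy 2.4.6, pandas 2.3.3, matplotlib 3.10.9, R 4.3.3 and limma 3.58.1 were used.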

Additional observations from a re-analysis of the deposited data

Results flagged for a closer look

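These slow-fibre genes had ratios of opposite sign in the 2 diets or the 2 genotypes, and none of these differences was tested, since each group is 1 array. For the genotype ratio, *Tnnc1* had 0.23 on HFD and -0.49 on CT, a difference of 0.71, and *Csrp3* had -0.01 on HFD and 0.11 on CT, a difference of -0.13. For the diet ratio, *Myl2* had 0.41 in cKO and -0.61 in WT mice, a difference of 1.02. *Tnnc1* had 0.68 in cKO and -0.04 in WT mice, a difference of 0.71, *Myh7* had 0.53 and -0.01, a difference of 0.54, and *Mb* had -0.28 and 0.39, a difference of -0.67. The *Myl2* levels lay under the *Olfr* line on 3 of the 4 arrays.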

How the results depend on the processing

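With 1 array per group no replicate could be left out. No paired analysis was made, since no pairing between the pools of the groups is given. An additive fit of genotype and diet, whose error would be their interaction, was not run. A list median was taken as moved at 0.1 on the log2 scale and a count at 1.5 times. Of 116 list values recomputed, 101 stayed within these limits and no list value past 1.5-fold turned its sign. The median difference between the genotype ratios on HFD and CT, 0.02, did change sign within 0.1, to -0.01 after centring, -0.06 after cyclic loess and -0.03 without the genes that the heart also expresses. Over genes above the *Olfr* line on at least 1 array (8 of the 10), the slow-fibre median was -0.83 and slow minus fast -0.71 in cKO-CT over WT-CT, and 0.32 and 2.53 in cKO-HFD over cKO-CT. After cyclic loess slow minus fast in cKO-CT over WT-CT was -0.28. Without the 7 genes that the heart also expresses, leaving *Tnni1*, *Tnnt1* and *Mybpc1*, these were -0.32 and -0.20 in cKO-CT over WT-CT. In that shorter list 1 gene was lower in cKO-CT over WT-CT and 1 in cKO-HFD over WT-HFD, 0 were lower in WT-HFD over WT-CT, 0 were higher in cKO-HFD over cKO-CT, and all 3 had both cKO arrays below both WT arrays. These counts fall by construction, from fewer genes. At 2-fold, 2 genes were lower in cKO-HFD over WT-HFD (*Mb* and *Mybpc1*), beside 0.908% of all genes, 0 lower in WT-HFD over WT-CT, beside 0.647%, and 0 higher in cKO-HFD over cKO-CT, beside 0.186%. Of 120 single-gene ratios, 1 changed its call, *Myoz2* in cKO-CT over WT-CT, which was -0.53 after cyclic loess. Leaving out *Mb*, a choice made after seeing the data, moved no list value past these limits. Signal near background limits the sizes for *Myl2*, *Myoz2* and *Tnnt1*.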
